A study of Bos taurus with 11 samples.

Results

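The miR-181 family comprised 4 mature miRNAs in the mammary gland libraries of lactating cows, namely *bta-miR-181a*, *bta-miR-181b*, *bta-miR-181c* and *bta-miR-181d*. They were taken by name from a table of 796 miRNAs, in which all 4 were present and none of their opposite strands was listed. The libraries came from biopsies of 5 Holstein and 6 Montbéliarde cows, with 1 small RNA library per cow. According to the study's methods, all cows were at mid-lactation, received the same diet and were biopsied in a rear gland of the udder, a Holstein cow with mastitis having been excluded. The question of the comparison was whether breeds that differ in dairy performance differ in their mammary miRNAs.

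A miRNA guides a silencing complex to mRNAs that pair with its seed, the bases near its 5′ end, and thereby lowers the output of these mRNAs. The miR-181 miRNAs share their seed and can therefore bind many of the same targets, and they differ in the remainder of the molecule. The family is best known from the immune system, where *miR-181a* is abundant in developing lymphocytes and tunes the sensitivity of T cells to antigen. It has also been linked to the differentiation of muscle cells, the vascular wall and the response of breast cancer cells to TGF-beta. A biopsy holds secretory epithelium, stroma, vessels and leukocytes, so that a lower level may reflect fewer cells of a type or less RNA per cell, which cannot be told apart.

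The RefSeq annotation of a later bovine assembly, used for names and neighbours only, holds 6 genes of the family in 3 neighbouring pairs. *MIR181A-1* lies next to *MIR181B-1*, outside any other annotated gene. *MIR181A-2* lies next to *MIR181B-2*, both inside *NR6A1*, the gene of an orphan nuclear receptor. *MIR181C* lies next to *MIR181D*, both inside the annotated span of *NANOS3*, and the next miRNA genes there are *MIR23A*, *MIR27A* and *MIR24-2*. Mature *miR-181a* and *miR-181b* can thus come from 2 genes each, whereas *miR-181c* and *miR-181d* have 1 gene each. Reads from the 2 genes of *miR-181a*, or from those of *miR-181b*, cannot be told apart in counts of mature miRNAs. The sequences of *miR-181a* and *miR-181c* are close, as are those of *miR-181b* and *miR-181d*, and how reads that fit more than 1 miRNA were assigned is not given in the sources used here. No member had counts in a constant ratio to another miRNA, within a tolerance of 0.1%.

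Between 6087865 and 16808976 reads were counted on miRNAs per library. The whole family held 1.89% ± 0.376 (SD, n = 11) of these reads. *MiR-181a* made up 95.6% ± 0.742 of the family's reads, *miR-181b* 3.19% ± 0.737, *miR-181c* 1.10% ± 0.536 and *miR-181d* 0.116% ± 0.0676 (SD, n = 11). By mean share of the library, *miR-181a* ranked 13 of the 796 miRNAs, *miR-181b* 66, *miR-181c* 91 and *miR-181d* 173. The rank of *miR-181a* was between 10 and 14 in every library, whereas that of *miR-181d* ranged from 132 to 208. A read covers a whole mature miRNA, so these counts need no correction for length. How efficiently each sequence entered the libraries was not measured, so the ratios between members are ratios of reads.

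The order from *miR-181a* to *miR-181d* was taken from the mean shares in these same libraries. It held for each neighbouring pair beyond the spread between cows. Within a library, the geometric mean ratio of counts was 30.7 for *miR-181a* over *miR-181b* and 9.56 for *miR-181c* over *miR-181d*. The first was higher in 11 of 11 libraries (exact sign-flip permutation test, two-sided, p = 0.000977 each, 0.00146 after Benjamini-Hochberg adjustment over 3 pairs). This p is the smallest that 11 libraries allow. For *miR-181b* over *miR-181c* the ratio was 3.06, and 10 of 11 libraries had more *miR-181b* (the same exact test, p = 0.00195, adjusted p = 0.00195). The exception was the Montbéliarde library CNLX15, with 4020 reads of *miR-181b* and 4600 of *miR-181c*.

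Levels are given as normalized read counts, the raw counts divided by 1 size factor per library. For *miR-181a* they were 137960, 159524, 182417, 141626 and 169515 in the Holstein libraries CNLX1, CNLX3, CNLX5, CNLX7 and CNLX9. In the Montbéliarde libraries the lowest was 105841, the median 210999 and the highest 230743. The Montbéliarde libraries were all above the Holstein libraries except CNLX23, which was the lowest of the 11, and the breeds overlapped. Without CNLX23, the lowest Montbéliarde level was 193771. The log2FC, Montbéliarde over Holstein, was 0.30 ± 0.19 (standard error), with an edgeR p of 0.478 after Benjamini-Hochberg adjustment over the 550 miRNAs tested. Leaving out CNLX23 raised it to 0.42, with an adjusted p of 0.126. In single libraries the share of *miR-181a* was known to within narrow limits. It was 1.28% in CNLX23, with a Wilson 95% confidence interval of 1.27 to 1.29%, and 2.45% in CNLX19, with an interval of 2.44 to 2.46%. Such intervals cover counting error only.

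For *miR-181b*, the normalized read counts were 5779, 6168, 7969.7, 5582 and 7397 in the Holstein libraries CNLX1 to CNLX9. The Montbéliarde libraries had a lowest level of 2852, a median of 5569 and a highest level of 6343. CNLX23 was again the lowest of the 11, and 2 Holstein libraries, CNLX5 and CNLX9, were above every Montbéliarde library. The log2FC was -0.34 ± 0.20 (standard error) with an adjusted edgeR p of 0.419, of opposite sign to that of *miR-181a*, and it was not called. It was -0.22 without CNLX23 and -0.21 without CNLX5.

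The level of *miR-181c* was 1607, 1369, 1585, 1419 and 1749.96 in the Holstein libraries in the same order. In the Montbéliarde libraries it was 1290.4 at the lowest, 1823 at the median and 5748 at the highest, which was found in CNLX15. The next highest library, CNLX21, had 2803, and 3 Montbéliarde libraries lay within or below the Holstein range. The log2FC was 0.68 ± 0.33 (standard error), and the adjusted edgeR p was 0.348. It fell to 0.35 without CNLX15, with an adjusted p of 0.478. The Montbéliarde cows differed among themselves more than the Holstein cows did, with a coefficient of variation of 67.4% against 9.94%, a difference that was not tested.

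*MiR-181d*, the rarest member, had normalized read counts of 161.5, 139, 158, 160.9 and 199 in the Holstein libraries CNLX1 to CNLX9. The Montbéliarde libraries had a lowest level of 108, a median of 191 and a highest level of 689.8, again in CNLX15. The raw counts behind these levels were between 94 and 552 reads, against a floor of 3 counts, so that counting error was larger than for the other members. The log2FC was 0.70 ± 0.38 (standard error), with an adjusted edgeR p of 0.405, and 0.27 without CNLX15.

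**Figure D1:**
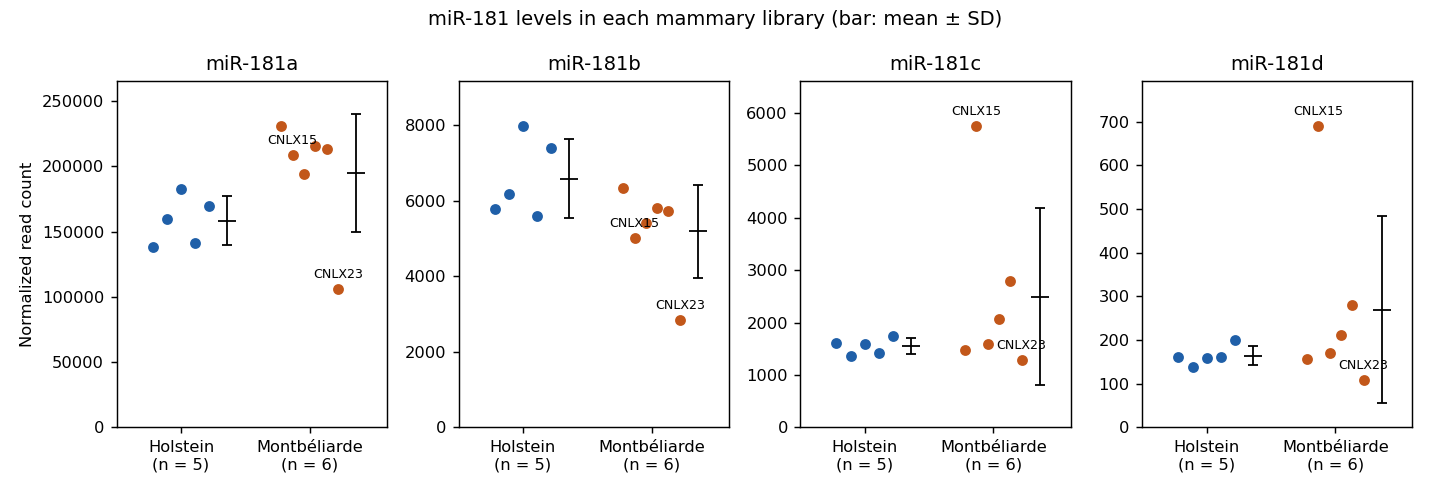
Normalized read count of each miR-181 member in every library, with 1 point per cow, 5 Holstein in blue and 6 Montbéliarde in orange, and the mean ± SD beside each breed. The breeds overlap for all 4 members, CNLX23 is the lowest library for each member, and CNLX15 is far above the others for *miR-181c* (5748) and *miR-181d* (689.8).

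None of the 4 members passed an adjusted p of 0.05 in the breed comparison, in which 2 of the 550 miRNAs tested, or 0.364%, were called. At an unadjusted p of at most 0.05 the members again gave 0 calls, against 78 miRNAs or 14.2% of those tested. *MiR-181c* was the nearest to this limit, with an unadjusted p of 0.0566 in the fit across all miRNAs. DESeq2 and limma-voom also called none of the members, although DESeq2 called 21 miRNAs in all. None of the 4 members had levels that did not overlap between the breeds. Of all miRNAs tested, 2 or 0.364% were higher in every Montbéliarde than in any Holstein library, and 9 or 1.64% were lower. The log2FC was positive for 3 members and negative for *miR-181b*, and its median over all 550 miRNAs was 0.03. The family as a whole held 1.70% ± 0.165 (SD, n = 5) of the counted reads in Holstein, against 2.05% ± 0.442 (SD, n = 6) for Montbéliarde. The difference of 0.349 percentage points did not exceed the variation among cows (two-sided exact permutation test, p = 0.132). It was 0.493 percentage points without CNLX23, with an exact p of 0.0238. CNLX23 had the lowest family share of the 11 libraries, so its omission widened the difference. With any other library left out, the exact permutation test gave p from 0.119 to 0.246.

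**Figure D2:**
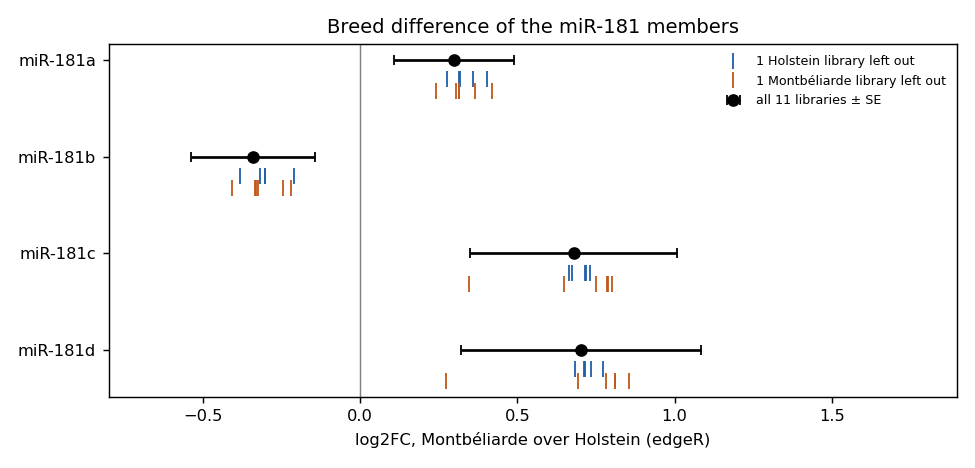
Difference between the breeds for each member as log2FC, Montbéliarde over Holstein, from edgeR. Black points with bars show the estimate from all 11 libraries ± standard error, and the ticks show the estimates with 1 Holstein (blue) or 1 Montbéliarde (orange) library left out. *MiR-181b* is at -0.34 and the other 3 members are between 0.30 and 0.70, and the estimates of *miR-181c* and *miR-181d* lie lowest, at 0.35 and 0.27, without CNLX15.

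The ratio of *miR-181a* to *miR-181b* separated the breeds in every library. Within a library such a ratio does not depend on how the library is scaled. There were 23.9, 25.9, 22.9, 25.4 and 22.9 reads of *miR-181a* for each read of *miR-181b* in the Holstein libraries CNLX1 to CNLX9. In the Montbéliarde libraries the ratio was 35.9 at the lowest, 37.1 at the median and 41.5 at the highest. The highest Holstein ratio, 25.9 in CNLX3, was thus well below the lowest Montbéliarde ratio, 35.9 in CNLX17. On the log2 scale of counts + 1, the Holstein mean was 4.59 ± 0.08 (SD, n = 5) and the Montbéliarde mean 5.23 ± 0.07 (SD, n = 6), a difference of 0.63 or 1.55-fold. The exact permutation test, two-sided, gave p = 0.00216, the smallest that 5 against 6 libraries allow, and p = 0.0130 after Benjamini-Hochberg adjustment over the 6 pairs of members. Omitting any 1 library left the difference between 0.60 and 0.66, with adjusted exact p-values from 0.0159 to 0.0476. Since omitting a library cannot make separate breeds overlap, these p-values are not a further test.

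The counting error of this ratio was small. It alone would give an SD of 0.02 on the log2 scale in each breed, compared with 0.08 and 0.07 observed. Expressed as a share, *miR-181b* made up 3.72% of the summed reads of both miRNAs in CNLX3, with a Wilson 95% interval of 3.63 to 3.82%. In CNLX17, the nearest library of the other breed, it made up 2.71%, with an interval of 2.62 to 2.80%. Library CNLX23, which had the lowest levels of both miRNAs, had a ratio of 37.1, inside the range of the other Montbéliarde libraries.

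Ratios that separate the breeds were not unusual among miRNAs. Of the 22791 pairs that can be formed from the 214 tested miRNAs with a mean of at least 100 counts, a comparison added after the data were seen, 1006 or 4.41% did not overlap between the breeds. For 850 of them, or 3.73% of all pairs, the difference was also at least as large as that of *miR-181a* over *miR-181b*. These pairs share miRNAs and are not independent, and 1 of the 6 pairs within the family was of this kind. The library tags run from CNLX1 to CNLX9 in Holstein and from CNLX13 to CNLX23 in Montbéliarde. Whether the tags give an order of preparation is not stated. If they do, order and breed cannot be told apart for this ratio. According to the study, the Montbéliarde libraries also had on average more adapter and too-short reads than the Holstein libraries. A lower percentage of their reads was kept after cleaning. The part of this in the ratio was not tested.

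Of 6 lists of marker miRNAs, 1 had summed shares that did not overlap between the breeds, which was not tested as a sum. The summed share of 6 stromal and smooth muscle miRNAs, all 6 of them found, spanned 15.98 to 21.4% in the Holstein libraries and 22.01 to 33.9% in the Montbéliarde libraries, without overlap. None of the 6 was at 0 in any library. In edgeR 0 of 6 passed the adjusted p of 0.05, against 0.364% of all miRNAs tested, and 5 had a positive and 1 a negative log2FC. DESeq2 and limma-voom also called 0 of 6. At an unadjusted edgeR p of at most 0.05 were 2 of 6, against 78 of 550 or 14.2% of all miRNAs tested. Most of the summed stromal share was *miR-143*, a miRNA of smooth muscle and stroma. As normalized read counts, *miR-143* overlapped between the breeds. Its highest Holstein level was 2.29e+06 and its lowest Montbéliarde level 1.92e+06, in CNLX23. The miRNA with the negative log2FC was *miR-145*, at -0.27. The nearest libraries of the breeds by the summed stromal share were CNLX3, with 21.4% and a *miR-181a* to *miR-181b* ratio of 25.9, and CNLX13, with 22.01% and a ratio of 36.4. CNLX3 and CNLX13 had 4.33% and 4.63% of epithelial miRNAs, 0.193% and 0.319% of leukocyte miRNAs, and 2.47% and 2.93% of endothelial miRNAs. They had 0.344% and 0.437% of erythroid miRNAs, and 0.0172% and 0.00660% of skeletal muscle miRNAs. The part of cell composition in the ratio was not tested.

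**Figure D3:**
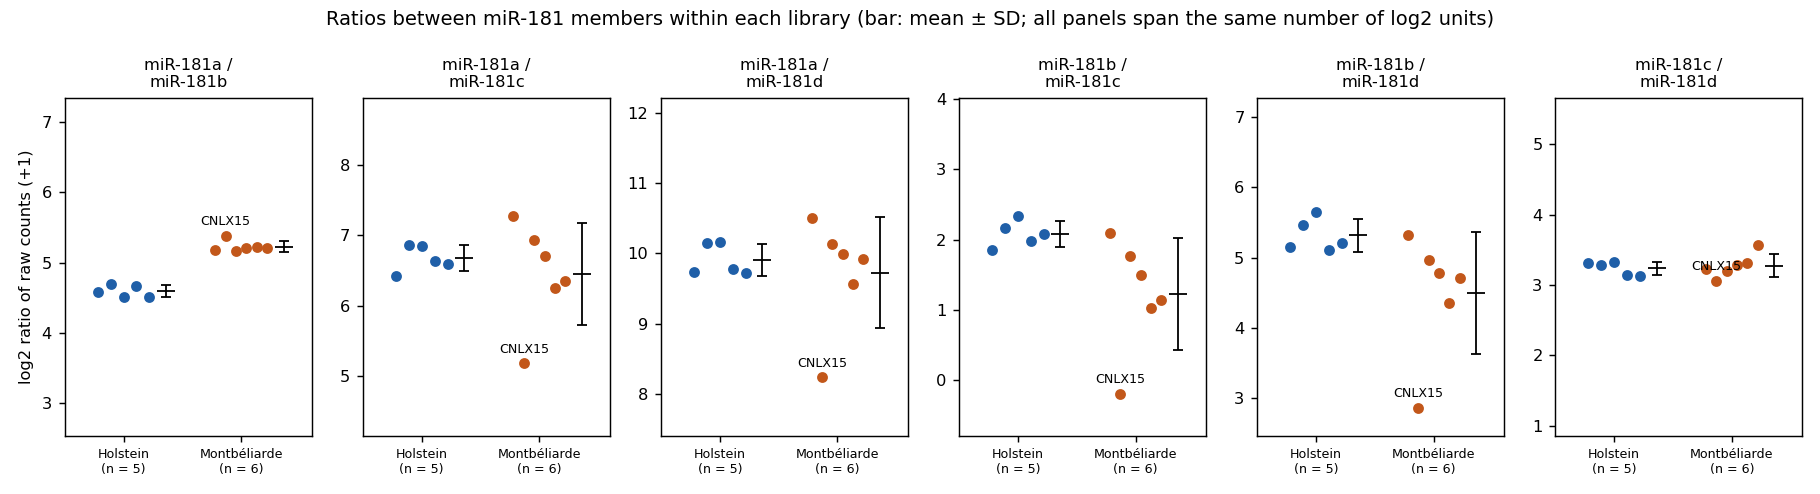
Log2 ratio of the raw counts (+1) of each pair of miR-181 members in every library, with the breeds side by side, the mean ± SD as bars and the same span of log2 units in all panels. The breeds are separate for *miR-181a* over *miR-181b* only (means 4.59 and 5.23), *miR-181c* over *miR-181d* is level across the libraries, and CNLX15 is the lowest library in the 4 ratios of *miR-181a* or *miR-181b* to *miR-181c* or *miR-181d*.

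The other 5 ratios overlapped between the breeds. For *miR-181c* over *miR-181d* the ratio was 9.95, 9.83, 10.02, 8.82 and 8.78 in the Holstein libraries, and in Montbéliarde it was 8.33 at the lowest, 9.63 at the median and 11.9 at the highest. The difference between the breeds was 0.04 on the log2 scale (exact permutation test, two-sided, p = 0.680, adjusted p = 0.768). The SD of the log2 ratio was 0.10 in Holstein and 0.17 in Montbéliarde, where counting error alone would give 0.11 and 0.12. The spread of this ratio between Holstein cows was therefore not distinguishable from counting error.

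*MiR-181b* was lower relative to *miR-181c* in Montbéliarde, with a geometric mean ratio of 2.33 against 4.23 in Holstein (exact permutation test, p = 0.0260, adjusted p = 0.0649). Relative to *miR-181d* it was 22.6 against 39.8 (exact p = 0.0325, adjusted p = 0.0649). Both differences missed the threshold after adjustment. Both passed it without CNLX13, the Montbéliarde library that lay inside the Holstein range of both ratios, with an adjusted p of 0.0159. Without that library the breeds no longer overlapped, so that passing followed from its omission. With other libraries left out, the adjusted exact p rose to as much as 0.2 for both ratios. The ratios of *miR-181a* to *miR-181c* and to *miR-181d* differed by -0.22 and -0.18 on the log2 scale, within the variation among cows (exact p = 0.610 and 0.768).

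The variation between cows was compared for each pair of members. On log2(TMM-scaled CPM + 1), where CPM are the counts scaled to a common library size, Pearson's r between *miR-181c* and *miR-181d* was 0.986 over the 11 libraries, and Spearman's rho was 0.955 (permutation tests with 100000 resamples, p = 2e-05 and 3e-05, adjusted p over 6 pairs 0.00012 and 0.00018). Without CNLX15 and CNLX21, the libraries farthest from the median, r was 0.917 (permutation test, adjusted p = 0.00618). Within the 6 Montbéliarde libraries r was 0.991 and rho 0.943 (permutation tests, adjusted p = 0.0170 and 0.0506). The 5 Holstein libraries are too few for a coefficient of their own.

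*MiR-181a* and *miR-181b* did not pass the test over all 11 libraries, with an r of 0.590 and a rho of 0.50 (permutation tests, adjusted p = 0.172 and 0.241), and r was -0.043 without CNLX1 and CNLX23. The libraries of the 2 breeds lay apart for this pair, as the ratios above show, so it was also examined within breeds. Within the 6 Montbéliarde libraries r was 0.985 and rho 0.943 (permutation tests, adjusted p = 0.0304 and 0.0506). With each library centred on the mean of its breed, r over the 11 libraries was 0.976 and rho 0.945 (permutation tests, adjusted p = 0.00012 and 0.00042). Without CNLX1 and CNLX23, the libraries farthest from the median, the centred r was 0.928 (permutation test, adjusted p = 0.00627).

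No relation between members of different gene pairs passed the test. Centred in the same way, r was 0.416 for *miR-181a* with *miR-181c* and 0.473 with *miR-181d* (permutation tests, adjusted p = 0.278 each). It was 0.286 for *miR-181b* with *miR-181c* and 0.339 with *miR-181d* (permutation tests, adjusted p = 0.356 and 0.322). Without centring the values were 0.506, 0.539, 0.026 and 0.112, and none passed the permutation test.

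**Figure D4:**
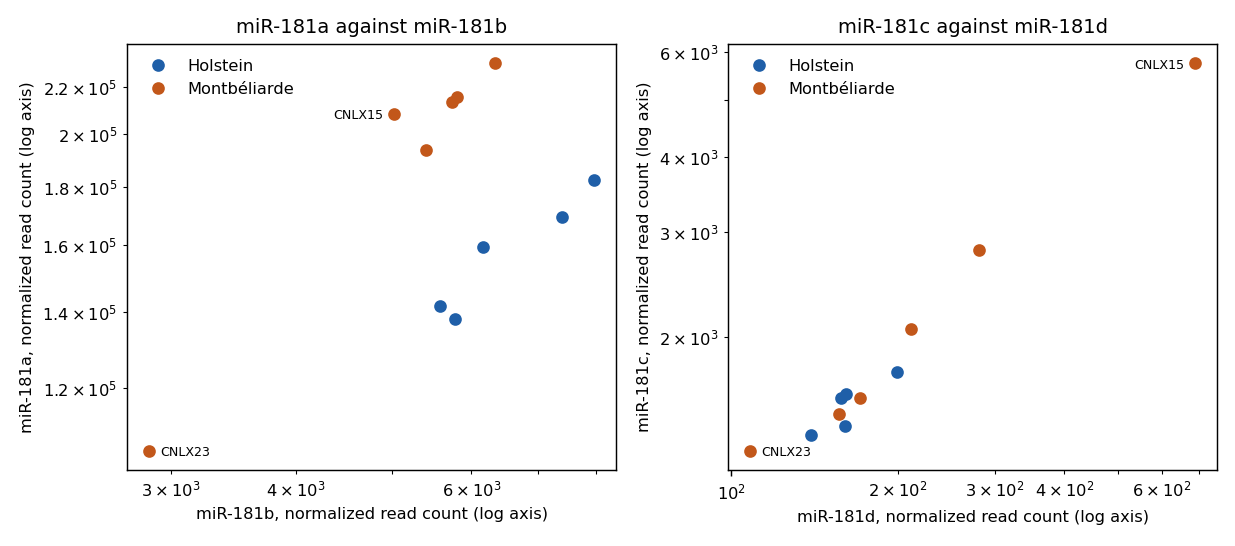
Normalized read count of *miR-181a* against *miR-181b* (left) and of *miR-181c* against *miR-181d* (right) on log axes, with 1 point per library, Holstein in blue and Montbéliarde in orange. On the left the breeds lie apart, and r was 0.976 over the 11 libraries centred on their breed means, without a coefficient for Holstein alone. On the right all libraries follow 1 line (r = 0.986).

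Among 210 other miRNAs with a mean of at least 100 counts, those most like each member over the 11 libraries were found by Pearson's r on the same scale. These coefficients are the highest of many and are given as a description, without a test. *MiR-181c* and *miR-181d* had the same 3 nearest miRNAs, *miR-221*, *miR-155* and *miR-222*, with r of 0.962, 0.944 and 0.941 for *miR-181c* and 0.935, 0.929 and 0.917 for *miR-181d*. *MiR-221* and *miR-222* are processed from a common transcript and are known to repress an inhibitor of the cell cycle. *MiR-155* is a miRNA of activated lymphocytes and macrophages. Their likeness rested in part on CNLX15, where *miR-221* had a normalized read count of 4642, with at most 2408 in any other library. Without CNLX15, the coefficients for *miR-181c* were 0.872, 0.879 and 0.853, and those for *miR-181d* were 0.773, 0.843 and 0.785.

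The miRNAs nearest to *miR-181a* were *miR-27b* (r = 0.858), a miRNA of vessels and adipose tissue, *miR-504* (r = 0.729) and *miR-93* (r = 0.714), a member of the *miR-106b* cluster. Those nearest to *miR-181b* were *miR-26b* (r = 0.823), *miR-194b* (r = 0.814) and *miR-16b* (r = 0.798). None of these was among the 3 nearest of another member. Without CNLX23, the r of *miR-181b* with *miR-16b* fell to 0.444 and that with *miR-194b* to 0.566. None of the 9 miRNAs named as nearest passed the breed comparison in edgeR, with adjusted p-values from 0.171 to 0.811, against 0.364% of all miRNAs tested. At an unadjusted p of at most 0.05 were 3 of the 9, against 78 of 550 or 14.2% of all miRNAs tested. DESeq2 called 1 of the 9, *miR-504*, with a log2FC of 1.176 ± 0.374 (standard error) and an adjusted p of 0.0399, and limma-voom called none. Over all miRNAs DESeq2 called 21 of 796 and limma-voom 2 of 550. The mean normalized read count of *miR-504* was 74.5 ± 18.9 (SD, n = 5) in Holstein, against 168.7 ± 96.8 (SD, n = 6) for Montbéliarde.

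*MiR-23a* and *miR-27a-3p* are made from the miRNA genes next to *MIR181C* and *MIR181D*, and they were compared with both members after the data were seen. The miRNAs of *MIR24-2* and the opposite strand *miR-27a-5p* were not compared. Pearson's r was 0.806 for *miR-181c* with *miR-27a-3p* and 0.831 for *miR-181d* (permutation tests, adjusted p over 4 pairs 0.0102 each). Spearman's rho was 0.564 and 0.627, with adjusted p of 0.155 each by the same permutation test. Without CNLX15 and CNLX21, r with *miR-27a-3p* was 0.340 for *miR-181c* and 0.448 for *miR-181d*, so that both relations rested in part on these libraries. With *miR-23a*, r was 0.150 and 0.237 (permutation tests, adjusted p = 0.687 each). Without CNLX15 and CNLX21, r with *miR-23a* was 0.083 and 0.275. Within the 6 Montbéliarde libraries alone, r was 0.926 and 0.945 with *miR-23a*, and 0.912 and 0.940 with *miR-27a-3p*. These values were not tested.

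Library CNLX15, which had the highest levels of *miR-181c* and *miR-181d*, also stood at an end of 5 of the 6 marker lists. Its summed share of 6 epithelial miRNAs, the *miR-200* family with *miR-205*, was 1.59%, the lowest of the 11, against 3.62 to 4.78% in Holstein and up to 4.63% in Montbéliarde. A further name on that list, *miR-203*, was not matched. As normalized read counts, *miR-200a*, *miR-200b*, *miR-200c* and *miR-429* were at their lowest of the 11 in CNLX15. *MiR-141*, the most abundant of the 6, ranked 9 there. *MiR-205* ranked 5, at 20676 against 14005 to 21238 in Holstein, and so was not low. The CNLX15 share of the 5 leukocyte miRNAs was 0.345%, the highest, against 0.186 to 0.304% in Holstein and 0.187 to 0.345% in Montbéliarde. The myeloid miRNA *miR-223* was at 679.8 in CNLX15 and between 69.4 and 357 in Holstein, and *miR-214*, a stromal miRNA, was at 667 against 107 to 152. Not every marker of these lists was at its highest in CNLX15. The leukocyte miRNAs *miR-142-3p* and *miR-150* ranked 2 there. The stromal *miR-145* ranked 3, at 4470 against 2899 to 4785 in Holstein. The stromal share of 33.9% was the highest as well, and the endothelial share of 2.23% and the erythroid share of 0.242% were the lowest of the 11. CNLX21, the library with the next highest *miR-181c*, had 1.87% of epithelial, 0.344% of leukocyte and 32.9% of stromal miRNAs. CNLX13 had 0.319% of leukocyte miRNAs, the third highest share, with a *miR-181c* level of 1487 inside the Holstein range. None of the leukocyte or epithelial markers was at 0 in any library. The part of these cells in the levels of *miR-181c* and *miR-181d* was not tested.

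**Figure D5:**
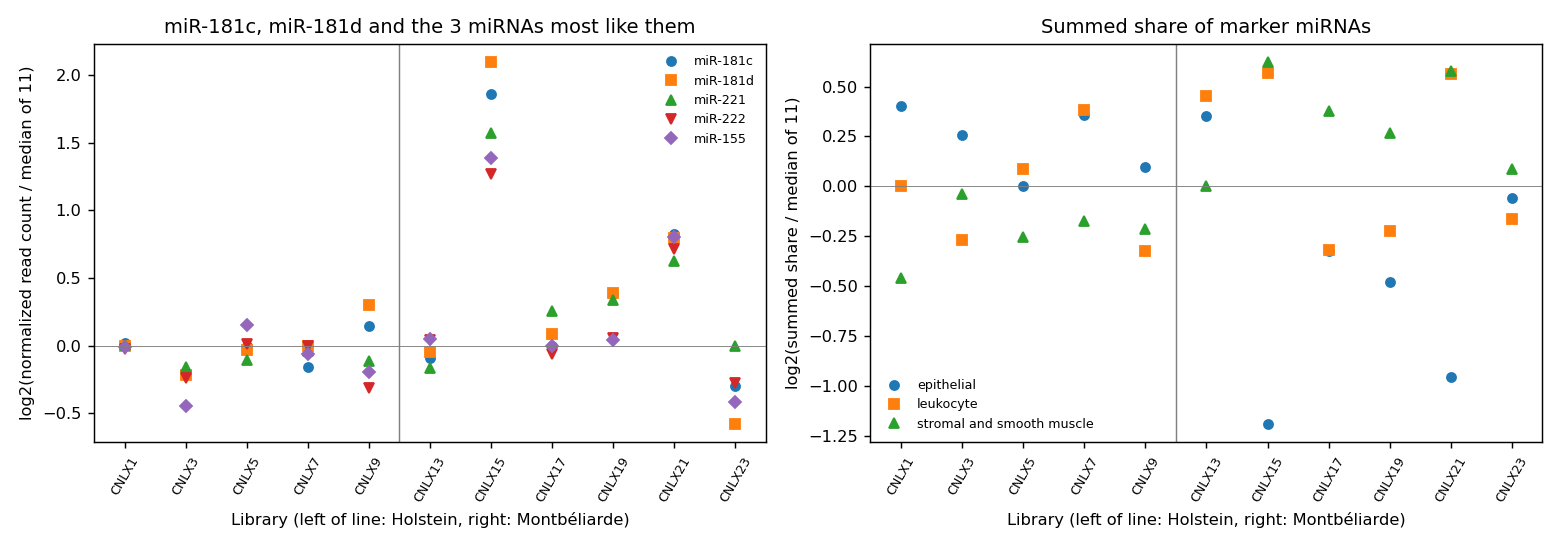
Left, log2 of the normalized read count over the median of the 11 libraries for *miR-181c*, *miR-181d* and the 3 miRNAs most like them, with 1 column per library and Holstein left of the line. Right, the same for the summed share of epithelial, leukocyte and stromal marker miRNAs. In CNLX15 all 5 miRNAs are at their highest, the epithelial share is at its lowest (1.59%) and the leukocyte (0.345%) and stromal (33.9%) shares are at their highest. The 3 miRNAs were chosen for their likeness over these same libraries, and *miR-155* is also on the leukocyte list, so the panels are not independent.

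Of the marker lists, 0 of 5 leukocyte, 0 of 6 epithelial, 0 of 2 endothelial, 0 of 3 erythroid and 0 of 4 skeletal muscle miRNAs passed the breed comparison in edgeR, against 0.364% of all miRNAs. DESeq2 and limma-voom called none of them either. An unadjusted edgeR p of at most 0.05 was found for 2 of 6 epithelial miRNAs, against 14.2% of all miRNAs, and for no miRNA of the other 4 lists. The log2FC was positive for 5 of 5 leukocyte miRNAs, with a median of 0.40, and negative for 5 of 6 epithelial miRNAs, with a median of -0.21. The summed share of the *miR-126* strands, which mark endothelium, lay from 2.47 to 3.26% in the Holstein libraries and from 2.23 to 3.10% in the Montbéliarde libraries. In CNLX23, where every member was at its lowest, the shares were 2.90% for endothelial, 0.209% for leukocyte and 3.48% for epithelial miRNAs, each inside the range of the other libraries. Its erythroid share was 0.463%, the second highest of the 11, and its skeletal muscle share of 0.00628% was the second lowest.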

How the data were processed

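Small RNA reads of 11 mammary biopsies were analysed. According to the methods, the authors trimmed adaptors, removed ambiguous reads, selected reads by size and quantified them with the ncPRO-seq and miRDeep2 pipelines, using miRBase and a bovine genome. The authors deposited raw counts per mature miRNA and, as a signal, the same counts divided by a DESeq2 size factor (DESeq2 1.18.1 in the submitters' processing notes). The deposited fold changes, p-values and means of the authors' own comparison were not used.

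Breeds were taken from the sample labels and libraries are named by their tags. For miRNAs whose raw counts summed to 10 or more, the breeds were tested in R 4.3.3 with edgeR 4.0.16 (quasi-likelihood, TMM, robust glmQLFit), with Benjamini-Hochberg adjustment and a threshold of 0.05. The methods used DESeq2, run here (1.42.0) as an alternative beside limma 3.58.1. The fits were tested on simulated data. The standard error was derived from the log2FC and the F statistic. Single values were compared with exact permutation tests over the 462 assignments of 5 and 6 libraries or the 2048 sign patterns. The p-values set a difference, an order or a correlation against the variation between cows. Depth was 6087865 to 16808976 counts per library, so a floor of 3 counts is below 4.93e-05% of a library.

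Named were the 4 members, the 3 miRNAs most like each, and marker lists. The members and lists were chosen with earlier results of these data known. The rule also asked for miRNAs with the same bases 2 to 8, which were not looked up because mature sequences were not used here. *MiR-1814c* shares only letters of the name. *MiR-23a* and *miR-27a-3p* were added after their values were seen. No coordinates are given, since the annotation is of another assembly.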

Additional observations from a re-analysis of the deposited data

Results flagged for a closer look

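Each breed was checked for a library far from the others in 22 groups of values (the levels, ratios and family share in each breed), of which chance alone would single out about 1 in 20, and 4 were singled out, all Montbéliarde. *MiR-181a* had a normalized read count of 105841 in CNLX23, against 193771 to 230743 in the other 5. *MiR-181c* was at 5748 in CNLX15, with 1290.4 to 2803 in the others, and *miR-181d* was at 689.8 in the same library, with 108 to 280.5 in the others. The log2 ratio of *miR-181a* over *miR-181b* was 5.37 in CNLX15, with 5.17 to 5.22 in the others, which is a gap away from the Holstein libraries.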

How the results depend on the processing

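The log2FC of each member kept its sign and did not pass the threshold in 20 of 20 alternatives. The ratio of *miR-181a* over *miR-181b* and the order of each neighbouring pair kept their direction and passed it in 13 of 13, and the correlation of *miR-181c* with *miR-181d* in 15 of 15. For this ratio, leaving out 1 library could not make the separate breeds overlap, and the pseudocounts were small beside the counts. Its passing was therefore fixed in advance. The same held on leaving out 1 library for the orders in which the first member was higher in every library. The number of miRNAs called, 2 in the main comparison, was 21 with the DESeq2 Wald test, 0 with DESeq2 size factors in edgeR (82 at an unadjusted p of at most 0.05), 1 with total counts, 4 without both CNLX15 and CNLX23 (chosen after seeing the data), and 0 to 6 with each library left out. It was 6, 5 and 4 without CNLX23, CNLX17 and CNLX13, 1 without CNLX9 and 0 without any of the other 7. The cause was not tested.

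With each library left out, the family share difference was 0.250 to 0.493 percentage points, the highest without CNLX23. The log2 difference was -0.39 to 0.03 for *miR-181a* over *miR-181c* and -0.34 to 0.11 over *miR-181d*, positive only without CNLX15. It was -1.03 to -0.57 for *miR-181b* over *miR-181c* and -0.98 to -0.49 over *miR-181d*, and -0.018 to 0.084 for *miR-181c* over *miR-181d*, negative only without CNLX23.

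Pooled over the breeds, r of *miR-181a* with *miR-181b* was 0.590 (permutation test, adjusted p = 0.172), and 0.031 to 0.651 with a library left out, 0.976 centred on breeds and -0.043 without CNLX1 and CNLX23. For *miR-181b* with *miR-181c* it was -0.423 without the 2 farthest libraries and -0.412 to 0.356 with a library left out (-0.003 without CNLX21). With *miR-181d* it was -0.433 and -0.441 to 0.538. No pairing was analysed, since the breeds share no library tags. Depth limited *miR-181d* most, the member with the fewest reads.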
